A study of Homo sapiens with 4 samples.

Results

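Expression of 10 hypoxia and angiogenesis genes was followed in UM-UC-3 cells. UM-UC-3 is an established cell line from a human bladder cancer. The genes were HIF1A, EPAS1, VEGFA, ADM, SLC2A1, CA9, BNIP3, NDRG1, EGLN3 and ANKRD37. They were selected by name, through their Ensembl identifiers. No measured value entered that rule, but earlier results of these data were known when the genes were chosen. All 10 were listed in each of the 4 deposited tables, which together held 27629 genes. The cells had been kept in DMEM with fetal bovine serum and transfected with 75 nM siRNA, and total RNA was sequenced 48 h later. The 4 libraries were control siRNA, si-hnRNPK, si-PTBP1 and a library that carries the label si-lncRNA-LBCS, with 1 library per condition. Each of the last 3 received a mixture of 2 siRNAs against its target, so the separate siRNAs could not be told apart. No library was labelled as hypoxic, and no protein was measured in these files. A message level therefore says nothing here about the amount of HIF protein.

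Cells sense oxygen through the hypoxia-inducible factors (HIF). HIF1A and EPAS1 encode the regulated alpha subunits HIF-1α and HIF-2α, which pair with the beta subunit encoded by ARNT. While oxygen is present, prolyl hydroxylases of the EGLN family mark the alpha subunits, and the VHL ubiquitin ligase then removes them. When oxygen is low the alpha subunits persist and switch on genes for vessel growth (VEGFA, ADM), glucose uptake (SLC2A1), pH control (CA9), mitochondrial removal (BNIP3) and feedback (EGLN3). The system is much studied in bladder cancer, where CA9 is used as a marker of hypoxic tumour areas.

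Between 54301152 and 70232674 reads were assigned to listed genes in each library, so that 3 reads corresponded to between 0.0427 and 0.0552 CPM (reads of a gene per 1000000 reads). HNRNPK fell from 783.1 CPM in control to 187.8 CPM with si-hnRNPK, or 24.0% of control. PTBP1 fell from 280.0 CPM in control to 89.7 CPM with si-PTBP1, or 32.0% of control. The gene matched by the siRNAs against lncRNA-LBCS, AL022068.1, had 110 reads with control siRNA and 103 reads in the si-lncRNA-LBCS-labelled library. This was 81.8% of control, with a 95% counting interval from 61.9% to 108.0%, although the labels give a qPCR value for that target below the one of control. The gene had 186 reads with si-hnRNPK and 214 with si-PTBP1, or 3.43 and 3.82 CPM, against 1.79 CPM in control and 1.47 CPM in the si-lncRNA-LBCS-labelled library, which was thus the lowest of the 4. No direction for the lncRNA itself is drawn from that library. Of 13 urothelial and epithelial markers 4 reached 1 CPM in each library, led by KRT18 at 75.2 to 121.4 CPM. The summed level of these markers was 190.3 CPM in control, 152.8 with si-hnRNPK, 185.9 with si-PTBP1 and 218.2 in the si-lncRNA-LBCS-labelled library. The uroplakin genes UPK1A, UPK1B and UPK2, with GATA3 and KRT5, had at most 18 reads in any library. The urothelial identity given by the labels was thus not visible in these genes, and the list as a whole does not settle it.

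The siRNAs are shown because an siRNA can also lower other messages through its seed, the guide bases 2 to 8. Each is printed as the sense strand from 5′ to 3′, and the capitals mark the 7 bases that a message must share to pair with that seed.
Control siRNA: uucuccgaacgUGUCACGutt
hnRNPK siRNA 1: ggguuguagagUGCAUAAatt
hnRNPK siRNA 2: gccuccaucuaGAAGAGAutt
PTBP1 siRNA 1: gccucaacgucAAGUACAatt
PTBP1 siRNA 2: cccucauugacCUGCACAatt
lncRNA-LBCS siRNA 1: gcugcucauuuGUCUGAUctt
lncRNA-LBCS siRNA 2: ggugguagucaACACAAAutt

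No siRNA matched a transcript of the 10 genes over its 19 paired bases without a mismatch. Seed matches in the longest annotated 3′ UTR were found for 7 of the 10 genes, and none was found for NDRG1, CA9 and ADM. HIF1A held 1 match to PTBP1 siRNA 2, and EPAS1 held 1 match to each of the PTBP1 and lncRNA-LBCS siRNAs. BNIP3 held 1 match to hnRNPK siRNA 1, while VEGFA held 2 matches and EGLN3 and SLC2A1 1 match each to hnRNPK siRNA 2. ANKRD37 held 1 match to the control siRNA. Such matches are common by their length alone, since between 3.63% (control siRNA) and 23.1% (hnRNPK siRNA 2) of 11965 genes held one. The site in HIF1A lies at bases 253 to 259 of a 3′ UTR of 1322 bases, the site in BNIP3 at bases 1969 to 1975 of 2409, and the overlapping sites in VEGFA at bases 937 to 943 and 942 to 948 of 1928. They are shown with the match in capitals, because these 3 genes were lower than control in the library of that siRNA. Lower values are common, since with si-hnRNPK 43.9% of all genes tested were lower by at least as much as VEGFA. The share was 21.1% for BNIP3 with si-hnRNPK and 1.56% for HIF1A with si-PTBP1. EPAS1, with matches to the PTBP1 and the lncRNA-LBCS siRNAs, was higher than control with si-PTBP1 and in the si-lncRNA-LBCS-labelled library. EGLN3 and SLC2A1 were higher with si-hnRNPK, and the part of the seeds was not tested.
HIF1A site for PTBP1 siRNA 2: tggctacaataCTGCACAaact
BNIP3 site for hnRNPK siRNA 1: accagtcccctTGCATAAgctc
VEGFA upstream site for hnRNPK siRNA 2: gatgtcccggcGAAGAGAagag
VEGFA downstream site for hnRNPK siRNA 2: cccggcgaagaGAAGAGAcaca

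HIF binds DNA at a short core, most often ACGTG. Promoter windows from 250 bases before to 50 bases after the RefSeq start (GRCh38.p14) were searched for ACGTG on both strands, and 21.4% of 35116 such windows held it. Windows were used for 8 of the 10 genes, with 2 windows for HIF1A, and not for VEGFA and NDRG1. The window of CA9 held 1 match, that of BNIP3 held 2 and that of ANKRD37 held 3, while those of HIF1A, EPAS1, ADM, EGLN3 and SLC2A1 held 0. The 250 bases before the start are printed for the 3 genes with a match, 5′ to 3′ on the strand of the gene, and capitals mark ACGTG or its reverse complement CACGT, which overlap where CACGTG is printed.
CA9, chr9:35673678-35673927, plus strand: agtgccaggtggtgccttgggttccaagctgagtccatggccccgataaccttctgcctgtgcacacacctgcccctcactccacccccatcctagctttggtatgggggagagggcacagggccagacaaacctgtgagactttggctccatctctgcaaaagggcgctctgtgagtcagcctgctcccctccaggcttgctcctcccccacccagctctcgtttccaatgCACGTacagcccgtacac
BNIP3, chr10:131981924-131982173, minus strand: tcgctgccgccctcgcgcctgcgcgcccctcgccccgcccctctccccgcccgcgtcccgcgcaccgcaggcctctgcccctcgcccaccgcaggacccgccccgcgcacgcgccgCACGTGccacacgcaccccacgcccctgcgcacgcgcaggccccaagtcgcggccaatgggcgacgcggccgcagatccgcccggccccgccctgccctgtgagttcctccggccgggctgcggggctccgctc
ANKRD37, chr4:185396591-185396840, plus strand: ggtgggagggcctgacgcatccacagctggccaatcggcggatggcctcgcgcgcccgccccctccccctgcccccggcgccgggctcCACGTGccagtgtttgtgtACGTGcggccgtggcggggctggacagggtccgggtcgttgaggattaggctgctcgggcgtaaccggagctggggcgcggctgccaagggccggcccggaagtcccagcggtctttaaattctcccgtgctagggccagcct

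A match says only that these letters occur in the window. The 3 genes with ACGTG differed from each other in the libraries: CA9 stood on both sides of control, BNIP3 was lower in all 3 knockdown libraries, and ANKRD37 stayed within 0.5 of control on the log2 scale in each. A second core, GCGTG, occurred in 36.5% of windows and was found once each for HIF1A, EPAS1, ADM and SLC2A1 and 4 times for BNIP3.

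The 10 genes lay on both sides of control in each knockdown library, and whether they moved as a group was not tested. NDRG1 rose with si-hnRNPK, BNIP3 fell with si-PTBP1, and CA9 rose in the si-lncRNA-LBCS-labelled library. The remaining differences from control siRNA stayed under the threshold, which was a difference of 1 in log2(CPM + 1) for genes that reached 1 CPM in either library of the pair. The spread between cultures could not be measured with 1 library per condition, and the 95% intervals below cover counting error only. The scale understates the change of genes with few reads. In bulk RNA, fewer cells that express a gene and less of its RNA per cell cannot be told apart.

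With si-hnRNPK 1 of 10 genes tested rose and 0 fell, with a median difference of 0.43. Of all 13672 genes tested 7.48% passed the threshold, with 3.55% up and 3.93% down, and their median was -0.11. With si-PTBP1 0 of 10 rose and 1 fell, with a median of 0.10. Of 13855 genes tested 3.53% passed, with 2.92% up and 0.613% down, and their median was 0.12. In the si-lncRNA-LBCS-labelled library 1 of 9 genes tested rose and 0 fell, with a median of 0.13. Of 13492 genes tested 1.39% passed, with 0.378% up and 1.01% down, and their median was -0.01. Under median-of-ratios scaling, which sets the typical gene to the same level in all libraries, the typical gene stood at -0.11 with si-hnRNPK and at 0.13 with si-PTBP1 relative to control on the log2 scale before scaling, and the scaling removes these offsets. The split over all genes became 610 up and 374 down in place of 486 and 537 with si-hnRNPK, and 256 up and 132 down in place of 404 and 85 with si-PTBP1.

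**Figure D1:**
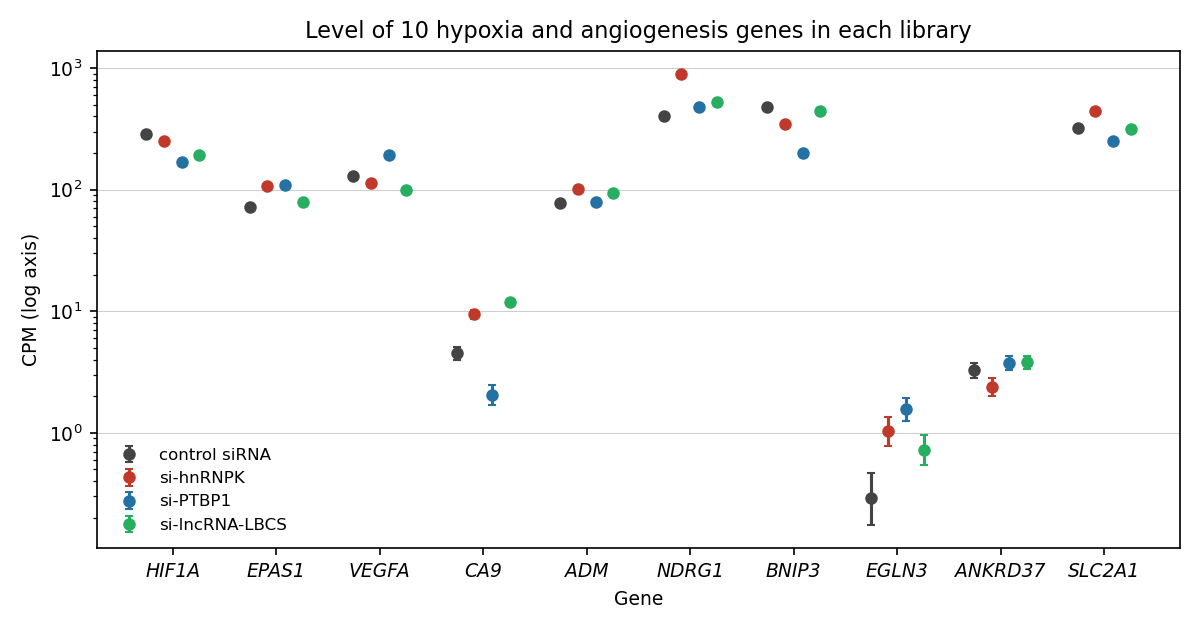
Level of each of the 10 genes in CPM (log axis) in the 4 libraries, 1 point per library, with 95% counting intervals that are smaller than the points for the abundant genes. NDRG1, BNIP3, SLC2A1 and HIF1A lay above 100 CPM in all 4 libraries, whereas CA9, ANKRD37 and EGLN3 lay at 11.8 CPM or less.

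**Figure D2:**
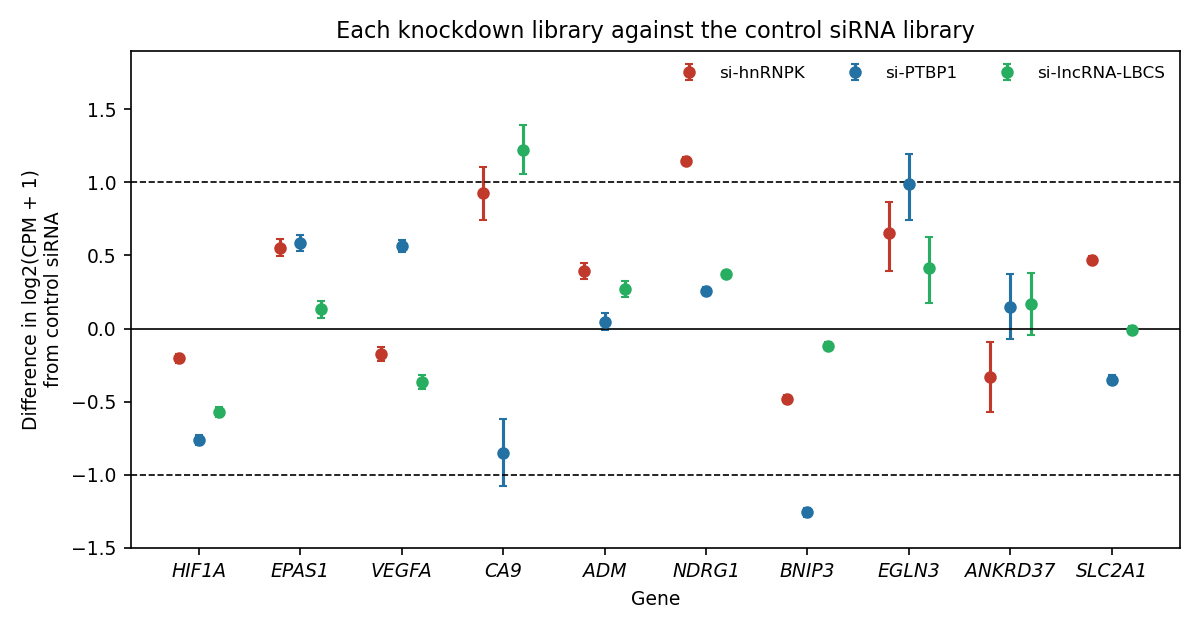
Difference of each gene from the control siRNA library in log2(CPM + 1), with 95% counting intervals, for the 3 knockdown libraries. Dashed lines mark the threshold of 1 either way, and NDRG1 with si-hnRNPK, BNIP3 with si-PTBP1 and CA9 in the si-lncRNA-LBCS-labelled library lie beyond it.

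HIF1A (ENSG00000100644, chromosome 14, GRCh38 61695513 to 61748259, plus strand) was at 287.8 CPM with control siRNA, 249.6 CPM with si-hnRNPK, 169.3 CPM with si-PTBP1 and 193.2 CPM in the si-lncRNA-LBCS-labelled library. The control library was the highest and the si-PTBP1 library the lowest. The differences from control were -0.20 (interval -0.24 to -0.17), -0.76 (-0.80 to -0.73) and -0.57 (-0.60 to -0.54), in the same order. None passed the threshold. With si-PTBP1, 1.56% of all genes tested were lower by at least as much as HIF1A. Under median-of-ratios scaling its difference was -0.09 with si-hnRNPK and -0.89 with si-PTBP1.

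EPAS1 (ENSG00000116016, chromosome 2, 46293667 to 46386703, plus strand) was at 72.0 CPM with control siRNA, 106.1 CPM with si-hnRNPK, 108.4 CPM with si-PTBP1 and 78.9 CPM in the si-lncRNA-LBCS-labelled library. Here the control library was the lowest, opposite to HIF1A. The differences were 0.55 (0.50 to 0.61) with si-hnRNPK and 0.58 (0.53 to 0.64) with si-PTBP1, and these libraries did not differ from each other beyond counting error (-0.03, interval -0.08 to 0.02), whereas under median-of-ratios scaling EPAS1 was higher with si-hnRNPK by 0.21. In the si-lncRNA-LBCS-labelled library the difference was 0.13 (0.07 to 0.19). The ratio of HIF1A reads to EPAS1 reads, which does not depend on library size, was 4.0 (3.87 to 4.13) with control siRNA. It was 2.35 (2.28 to 2.43) with si-hnRNPK, 1.56 (1.51 to 1.61) with si-PTBP1 and 2.45 (2.37 to 2.53) in the si-lncRNA-LBCS-labelled library. The balance of the alpha subunit messages was thus lower for HIF1A in all 3 knockdown libraries than in the 1 control library, to which each of them is compared.

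Among 13 tested genes of HIF partners and oxygen sensing, 1 rose and 3 fell with si-hnRNPK, and 0 passed the threshold in the other comparisons. The medians were -0.28 with si-hnRNPK, 0.17 with si-PTBP1 and -0.15 in the si-lncRNA-LBCS-labelled library. Of all genes tested, 3.55% rose and 3.93% fell with si-hnRNPK. The shares were 2.92% and 0.613% with si-PTBP1, and 0.378% and 1.01% in the si-lncRNA-LBCS-labelled library. ARNT, the beta subunit, was at 25.2, 23.5, 37.4 and 22.6 CPM in control, si-hnRNPK, si-PTBP1 and the si-lncRNA-LBCS-labelled library, so that its highest level, a difference of 0.55, was with si-PTBP1. EGLN1, the main prolyl hydroxylase of HIF, was at 82.7, 103.0, 65.4 and 108.0 CPM. HIF1AN, which hydroxylates an asparagine of the alpha subunits, was at 26.7, 16.3, 30.4 and 24.8 CPM. VHL was at 53.6, 55.9, 62.6 and 64.9 CPM. ARNT, EGLN1, HIF1AN and VHL passed the threshold in no library. EGLN2 was looked up as well, but no pair of values was found to compare with control.

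The coactivators of HIF were lower in 2 of the 3 knockdown libraries. EP300 was at 46.0, 20.2, 53.8 and 24.2 CPM in the same order, and it fell by 1.15 with si-hnRNPK. CREBBP was at 52.3, 23.9, 58.9 and 26.6 CPM, and it fell by 1.10. Both stood below control by less than 1 in the si-lncRNA-LBCS-labelled library, at -0.90 and -0.95, and above it with si-PTBP1. CITED2, which competes with HIF for both coactivators, rose by 1.05 with si-hnRNPK, from 58.3 to 122.0 CPM. The third gene that fell was SENP1, a protease that removes SUMO, with -1.01, named after its value was seen. Under median-of-ratios scaling CREBBP (-0.99) and SENP1 (-0.90) did not pass the threshold and EP300 (-1.04) did.

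VEGFA (ENSG00000112715, chromosome 6, 43770184 to 43786487, plus strand) encodes the main growth factor for new vessels. It was at 128.7 CPM with control siRNA, 113.9 CPM with si-hnRNPK, 190.9 CPM with si-PTBP1 and 99.6 CPM in the si-lncRNA-LBCS-labelled library. The si-PTBP1 library stood above the other 3. The differences were -0.18 (-0.22 to -0.13), 0.56 (0.52 to 0.61) and -0.37 (-0.41 to -0.32), and none passed the threshold. Under median-of-ratios scaling they were -0.06, 0.44 and -0.36. With si-PTBP1 13.1% of all genes tested were higher by at least as much. Between knockdown libraries, VEGFA was lower in the si-lncRNA-LBCS-labelled library than with si-PTBP1 by 0.93 (0.89 to 0.98). The related ligand genes did not share its order, and these ratios were added after their values had been seen. The ratio of VEGFA reads to VEGFB reads was 5.23 with control siRNA, 6.87 with si-hnRNPK, 7.04 with si-PTBP1 and 4.73 in the si-lncRNA-LBCS-labelled library. To VEGFC, which acts on lymphatic vessels, it was 6.16, 3.47, 5.98 and 4.72.

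ADM (ENSG00000148926, chromosome 11, 10304680 to 10307397, plus strand) encodes adrenomedullin, a peptide that widens vessels and supports their growth. It varied least of the 10 genes, with 77.2 CPM in control, 101.7 CPM with si-hnRNPK, 79.7 CPM with si-PTBP1 and 93.2 CPM in the si-lncRNA-LBCS-labelled library, or 1.32 times between the highest and the lowest. The differences were 0.39 (0.34 to 0.45), 0.05 (-0.01 to 0.10) and 0.27 (0.22 to 0.32). With si-PTBP1 the interval included 0, and the sign turned to -0.08 under median-of-ratios scaling.

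The receptors of VEGFA and ADM are known mainly from endothelial cells. FLT1 had between 1 and 5 reads in each library. KDR, CALCRL, RAMP2 and RAMP3 were looked up as well, but no pair of values was found to compare with control. The tested genes of a wider list of angiogenic and adrenomedullin receptors were FLT4, NRP1, NRP2 and TIE1. Of these 4, 0 rose and 1 fell in each comparison, and each fall was of FLT4 or TIE1. The medians were 0.07 (si-hnRNPK), -0.14 (si-PTBP1) and -0.68 (si-lncRNA-LBCS-labelled library). Over all genes tested, 3.55%, 2.92% and 0.378% rose and 3.93%, 0.613% and 1.01% fell, in the same order. The VEGF co-receptors NRP1 and NRP2 were measurable. NRP1 was at 20.1, 28.7, 40.7 and 25.4 CPM in control, si-hnRNPK, si-PTBP1 and the si-lncRNA-LBCS-labelled library, and its difference of 0.98 with si-PTBP1 lay just under the threshold. NRP2 was at 24.5, 19.3, 28.8 and 16.1 CPM. TIE1, a receptor tyrosine kinase typical of endothelium, was at 29.6, 41.0, 9.35 and 8.39 CPM. It fell by 1.56 with si-PTBP1 and by 1.70 in the si-lncRNA-LBCS-labelled library. TIE1 is itself 1 of 10 endothelial markers on a list. Of these, 4 reached 1 CPM in control, 3 with si-hnRNPK, 4 with si-PTBP1 and 2 in the si-lncRNA-LBCS-labelled library. CDH5 and VWF, also on the list, had at most 7 reads in any library. The summed level of the 10 endothelial markers was 74.0, 108.8, 58.9 and 48.1 CPM in the same order, and EGFL7, at 37.3 to 63.7 CPM, was the highest of them. FLT4, the VEGFC receptor, fell with si-hnRNPK from 3.31 to 0.792 CPM and was named after its value was seen.

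Of 11 to 12 tested genes for angiogenic ligands and inhibitors, 1 rose with si-hnRNPK, 0 passed the threshold with si-PTBP1 and 1 fell in the si-lncRNA-LBCS-labelled library. The medians were 0.21, 0.07 and 0.0046 in that order. Over all genes tested, 3.55%, 2.92% and 0.378% rose and 3.93%, 0.613% and 1.01% fell, in the same order. CXCL8, the chemokine interleukin-8, was at 37.2, 147.6, 22.3 and 16.6 CPM. It rose by 1.96 (1.89 to 2.03) with si-hnRNPK and fell by 1.12 (1.02 to 1.22) in the si-lncRNA-LBCS-labelled library. VEGFA and ADM themselves stayed within 0.6 of control in each library. The leukocyte markers summed to at most 2.85 CPM in any library, led by ITGAM. Fibroblast and mural markers summed to 2.82 CPM with control siRNA, 25.9 CPM with si-hnRNPK, 14.5 CPM with si-PTBP1 and 3.26 CPM in the si-lncRNA-LBCS-labelled library, with ACTA2 as the highest of them in each library, and the part of other cells in the values above was not tested.

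SLC2A1 (ENSG00000117394, chromosome 1, 42925375 to 42959176, minus strand) encodes GLUT1, the main glucose transporter of many tumour cells. It was at 319.8 CPM with control siRNA, 442.9 CPM with si-hnRNPK, 250.6 CPM with si-PTBP1 and 317.0 CPM in the si-lncRNA-LBCS-labelled library. The si-hnRNPK library was the highest and the si-PTBP1 library the lowest. The differences were 0.47 (0.44 to 0.50), -0.35 (-0.38 to -0.32) and -0.01 (-0.04 to 0.02), so the si-lncRNA-LBCS-labelled library could not be told from control by counting. Its relative SLC2A3, which encodes GLUT3, was far lower, at 4.17, 9.37, 12.1 and 4.60 CPM, and rose by 1.00 (0.82 to 1.19) with si-hnRNPK and by 1.35 (1.17 to 1.52) with si-PTBP1. The ratio of SLC2A1 reads to SLC2A3 reads was 76.7 (67.8 to 87.1) with control siRNA, 47.3 (43.3 to 51.7) with si-hnRNPK, 20.6 (19.1 to 22.3) with si-PTBP1 and 68.9 (61.8 to 77.2) in the si-lncRNA-LBCS-labelled library.

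Genes of glucose use were mostly lower with si-PTBP1. Of 18 genes on that list, 16 were below control with si-PTBP1, 14 with si-hnRNPK and 11 in the si-lncRNA-LBCS-labelled library, with medians of -0.33, -0.22 and -0.06. The medians of all genes tested were 0.12, -0.11 and -0.01 in that order, so with si-hnRNPK the typical gene was itself below control. Under median-of-ratios scaling the list medians were -0.46, -0.11 and -0.06. With si-PTBP1 1 rose, SLC2A3, and 2 fell, beside 2.92% up and 0.613% down over all genes tested. PGAM1 (phosphoglycerate mutase) fell from 667.3 to 232.6 CPM, a difference of -1.52 (-1.54 to -1.49), and PGK1 (phosphoglycerate kinase) from 1143 to 438.1 CPM, a difference of -1.38 (-1.40 to -1.36). In the other libraries PGAM1 was at 502.0 CPM (si-hnRNPK) and 754.9 CPM, and PGK1 at 1006 and 1172 CPM. With si-hnRNPK SLC2A3 rose and LDHA (lactate dehydrogenase A) fell, from 1739 to 862.6 CPM, a difference of -1.01 that was -0.90 under median-of-ratios scaling. Of all genes tested with si-hnRNPK, 3.55% rose and 3.93% fell.

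CA9 (ENSG00000107159, chromosome 9, 35673856 to 35681159, plus strand) encodes carbonic anhydrase IX, an enzyme at the cell surface that buffers acid. It had 276 reads with control siRNA, 512 with si-hnRNPK, 115 with si-PTBP1 and 831 in the si-lncRNA-LBCS-labelled library. This was 4.50, 9.43, 2.05 and 11.8 CPM, and the si-PTBP1 library was the only knockdown library below control. In the si-lncRNA-LBCS-labelled library CA9 rose by 1.22 (1.05 to 1.39), or 2.63 times (2.29 to 3.03), and 0.104% of all genes tested were higher by at least as much. With si-hnRNPK the difference was 0.92 (0.74 to 1.11), and 1.03 under median-of-ratios scaling, which is past the threshold. With si-PTBP1 it was -0.85 (-1.08 to -0.62), and 1.13% of genes were lower by at least as much. CA9 had the widest spread between knockdown libraries, with a level in the si-lncRNA-LBCS-labelled library that was 5.77 times that with si-PTBP1.

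The exons of CA9 share 643 bases, or 38.5% of their length, with ARHGEF39 on the opposite strand, and the counting is not known to have used strand. ARHGEF39 was at 30.1, 11.9, 22.7 and 32.3 CPM in control, si-hnRNPK, si-PTBP1 and the si-lncRNA-LBCS-labelled library. Reads from both genes cannot be told apart in that stretch. Relative to control both genes were lower with si-PTBP1 and both higher in the si-lncRNA-LBCS-labelled library, while with si-hnRNPK ARHGEF39 was lower and CA9 higher. The part of ARHGEF39 reads in the CA9 values was not tested. CA12, a related surface enzyme, was far more abundant than CA9, at 427.8, 979.3, 427.8 and 641.3 CPM. CA12 rose by 1.19 (1.17 to 1.21) with si-hnRNPK. It was at the control level with si-PTBP1, with a difference of 0.00 (-0.03 to 0.03) that was -0.13 under median-of-ratios scaling, where CA9 stood at -0.85, and at -0.93 under that scaling. The ratio of CA12 reads to CA9 reads was 95.1 (84.5 to 107.5) with control siRNA, 103.9 (95.2 to 113.5) with si-hnRNPK, 208.6 (173.7 to 252.8) with si-PTBP1 and 54.2 (50.6 to 58.1) in the si-lncRNA-LBCS-labelled library.

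**Figure D3:**
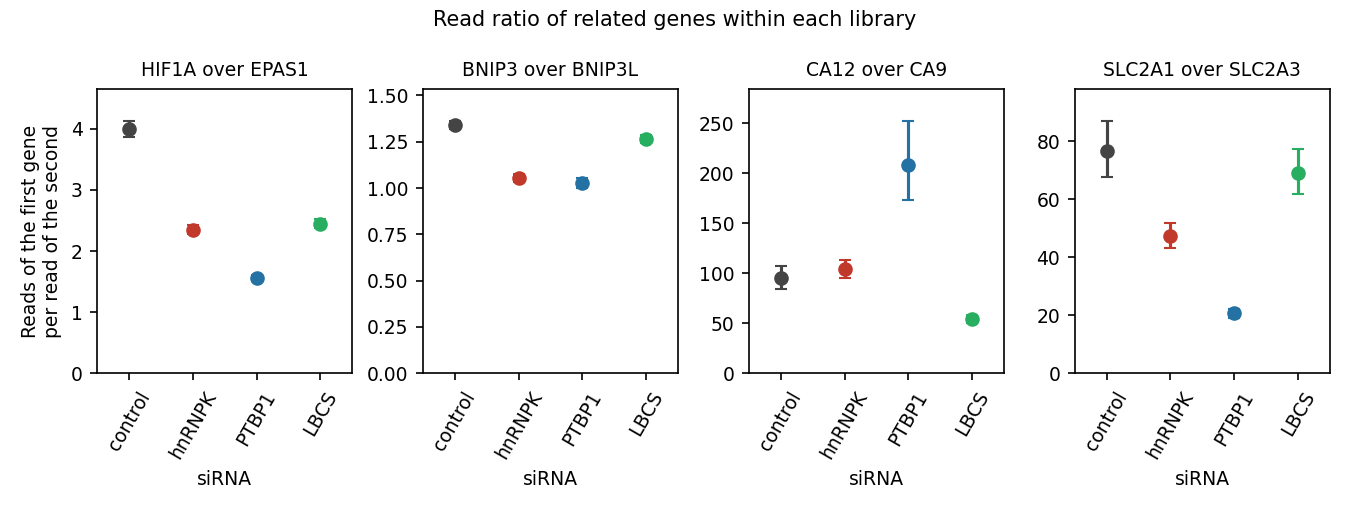
Reads of one gene per read of a related gene in each library, with 95% counting intervals, for HIF1A over EPAS1, BNIP3 over BNIP3L, CA12 over CA9 and SLC2A1 over SLC2A3. HIF1A over EPAS1 ran from 1.56 with si-PTBP1 to 4.0 with control siRNA, and CA12 over CA9 spanned 54.2 to 208.6.

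BNIP3 (ENSG00000176171, chromosome 10, 131966455 to 131982013, minus strand) encodes an outer mitochondrial membrane protein that marks mitochondria for removal. It was at 480.8 CPM with control siRNA, 343.4 CPM with si-hnRNPK, 200.6 CPM with si-PTBP1 and 443.3 CPM in the si-lncRNA-LBCS-labelled library. All 3 knockdown libraries stood below control. BNIP3 fell by 1.26 (1.23 to 1.29) with si-PTBP1, to 41.7% of control, and 0.303% of all genes tested were lower by at least as much. Of 2155 genes that reached 100 CPM in either library, 0.835% fell. The other differences were -0.48 (-0.51 to -0.46) with si-hnRNPK and -0.12 (-0.14 to -0.09) in the si-lncRNA-LBCS-labelled library. Against the mean of the other knockdown libraries in place of control, the difference with si-PTBP1 was -0.96, under the threshold.

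BNIP3L, the close relative with the same role, was at 358.6, 326.1, 194.9 and 350.6 CPM in control, si-hnRNPK, si-PTBP1 and the si-lncRNA-LBCS-labelled library. Its lowest level was also with si-PTBP1, a difference of -0.88 (-0.91 to -0.84) that became -1.0 under median-of-ratios scaling. The ratio of BNIP3 reads to BNIP3L reads was 1.34 (1.32 to 1.36), 1.05 (1.03 to 1.07), 1.03 (1.00 to 1.06) and 1.26 (1.24 to 1.29) in the same order. BNIP3 has many processed pseudogenes, and those listed were at 0.161 CPM or less. How the counting treated reads that match several of these copies is not known.

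NDRG1 (ENSG00000104419, chromosome 8, 133237171 to 133302022, minus strand) encodes a cytoplasmic protein induced by hypoxia and by stress. It was at 403.5 CPM with control siRNA, 895.6 CPM with si-hnRNPK, 482.2 CPM with si-PTBP1 and 522.5 CPM in the si-lncRNA-LBCS-labelled library. The si-hnRNPK library stood above the other 3, and control was the lowest. NDRG1 rose by 1.15 (1.13 to 1.17) with si-hnRNPK, or 2.22 times (2.19 to 2.25), and 2.41% of all genes tested were higher by at least as much. Of 2091 genes that reached 100 CPM in either library, 4.26% rose. The differences were 0.26 (0.23 to 0.28) with si-PTBP1 and 0.37 (0.35 to 0.39) in the si-lncRNA-LBCS-labelled library. Against the mean of the other knockdown libraries, the difference with si-hnRNPK was 0.83, under the threshold.

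EGLN3 (ENSG00000129521, chromosome 14, 33924231 to 34462774, minus strand) encodes a prolyl hydroxylase that HIF itself induces. It had 18 reads with control siRNA, 56 with si-hnRNPK, 88 with si-PTBP1 and 51 in the si-lncRNA-LBCS-labelled library, or 0.293, 1.03, 1.57 and 0.726 CPM. All 3 knockdown libraries stood above control. The differences were 0.65 (0.39 to 0.87), 0.99 (0.74 to 1.19) and 0.42 (0.17 to 0.62), and the linear ratios were 3.52 times (2.04 to 6.36), 5.35 times (3.20 to 9.45) and 2.48 times (1.42 to 4.50). EGLN3 reached 1 CPM only through the si-hnRNPK and si-PTBP1 libraries and was not tested in the third comparison. With a pseudocount of 0.1 the differences were 1.52, 2.09 and 1.07. The pseudogene EGLN3P1 was at 0.668, 0.147, 0.339 and 0.413 CPM, above EGLN3 in the control library, so that the level of EGLN3 is uncertain.

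ANKRD37 (ENSG00000186352, chromosome 4, 185396021 to 185400628, plus strand) encodes a small ankyrin repeat protein and is a HIF target. It had 201, 130, 210 and 267 reads in control, si-hnRNPK, si-PTBP1 and the si-lncRNA-LBCS-labelled library, or 3.27, 2.39, 3.75 and 3.80 CPM. The si-hnRNPK library was lower than the other 3, which could not be told apart by counting. The differences were -0.33 (-0.57 to -0.09), 0.15 (-0.07 to 0.37) and 0.17 (-0.04 to 0.38). Its exons share 909 bases, or 35.2% of their length, with UFSP2 on the opposite strand, which was at 34.7, 33.7, 56.1 and 40.9 CPM.

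Per kilobase of the longest coding transcript, the genes ran from BNIP3 to EGLN3 in the control library. BNIP3 was at 156.8 CPM per kilobase, NDRG1 at 107.5, SLC2A1 at 87.1, HIF1A at 72.8, ADM at 40.9, VEGFA at 36.4 and EPAS1 at 13.9 CPM per kilobase. ANKRD37 and CA9 followed with 2.87 and 2.78 CPM per kilobase and overlapping intervals, and EGLN3 was last at 0.103. With si-hnRNPK and with si-PTBP1 NDRG1 replaced BNIP3 at the top. HIF1A and ADM had overlapping intervals with si-PTBP1, at 42.8 and 42.2 CPM per kilobase, and in the si-lncRNA-LBCS-labelled library, at 48.8 and 49.4.

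The comparisons above share 1 control library, so a value of that library enters all 3. Control was the highest of the 4 libraries for HIF1A and BNIP3, and the lowest for EPAS1, ADM, NDRG1 and EGLN3. Between knockdown libraries, without the control, SLC2A1 was higher with si-hnRNPK than with si-PTBP1 by 0.82 (0.79 to 0.85), NDRG1 by 0.89 (0.87 to 0.91), BNIP3 by 0.77 (0.74 to 0.81), HIF1A by 0.56 (0.52 to 0.60) and CA9 by 1.77 (1.56 to 1.98). VEGFA was lower with si-hnRNPK than with si-PTBP1 by 0.74 (0.70 to 0.79). BNIP3 was higher in the si-lncRNA-LBCS-labelled library than with si-PTBP1 by 1.14 (1.11 to 1.17).

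**Figure D4:**
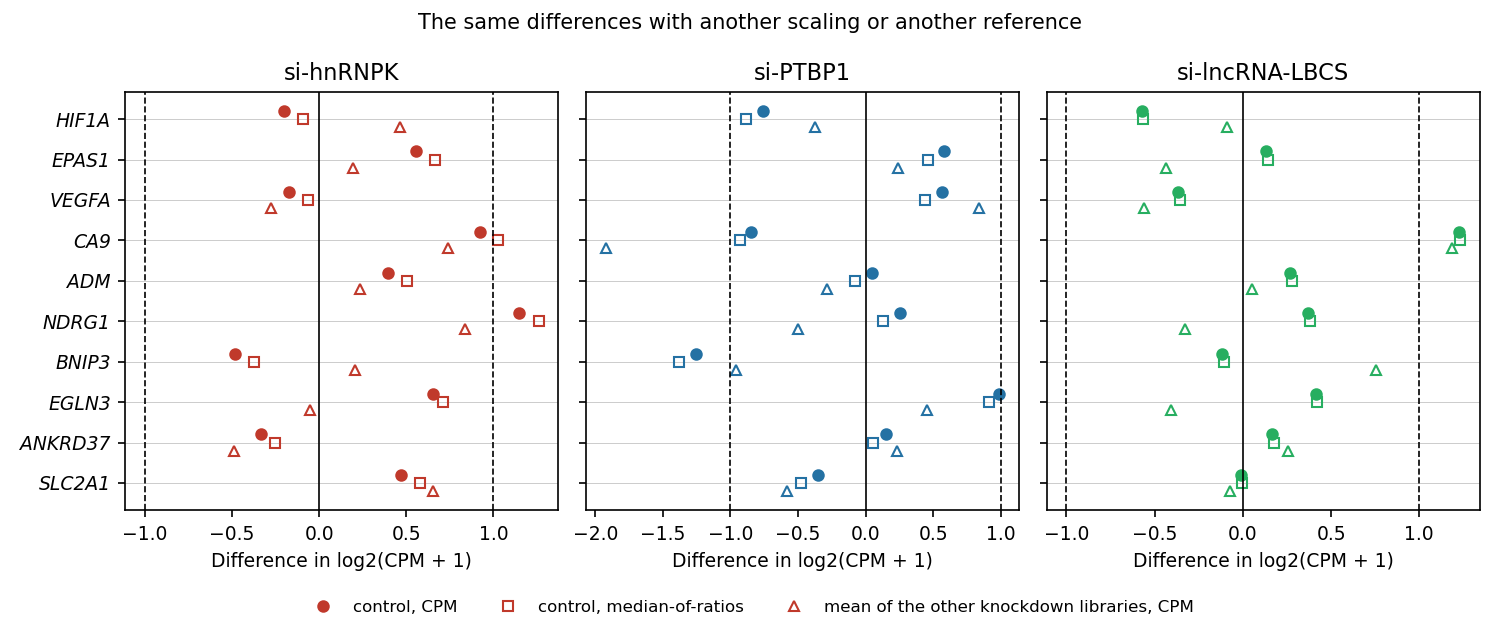
Difference in log2(CPM + 1) of each gene in the 3 knockdown libraries against control siRNA (filled circles), against control siRNA after median-of-ratios scaling (squares) and against the mean of the other knockdown libraries (triangles). CA9 in the si-lncRNA-LBCS-labelled library stays beyond 1 (1.19 to 1.23), while NDRG1 with si-hnRNPK moves to 0.83 and BNIP3 with si-PTBP1 to -0.96 without the control library.

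Of 6 genes for collagen modification, 0 passed the threshold in any library. They were at a median of 0.42 with si-hnRNPK, where 5 of 6 were higher, of -0.19 with si-PTBP1 and of -0.19 in the si-lncRNA-LBCS-labelled library. The medians of all genes tested were -0.11, 0.12 and -0.01. Of 22 tested other HIF targets, 3 rose and 2 fell with si-hnRNPK, 1 rose and 1 fell with si-PTBP1, and 0 rose and 1 fell in the si-lncRNA-LBCS-labelled library. The medians were -0.07, -0.31 and -0.04 in that order. Over all genes tested, 3.55%, 2.92% and 0.378% rose and 3.93%, 0.613% and 1.01% fell, in the same order. HMOX1 (heme oxygenase 1, which breaks down heme) was at 47.7, 167.6, 33.1 and 12.5 CPM, and it rose by 1.79 with si-hnRNPK and fell by 1.85 in the si-lncRNA-LBCS-labelled library. CA12 rose with si-hnRNPK, as given above, and so did TMEM45A, from 2.998 to 9.46 CPM, which was named after its value was seen. BHLHE40, a transcriptional repressor, fell with si-hnRNPK from 23.8 to 10.6 CPM, a difference of -1.10 that was -0.99 under median-of-ratios scaling, and BHLHE41, named after its value was seen, fell from 4.82 to 1.77 CPM. DDIT4, an inhibitor of mTORC1, rose with si-PTBP1 from 122.8 to 253.0 CPM, a difference of 1.04 that was 0.91 under that scaling. AK4, a mitochondrial adenylate kinase, fell with si-PTBP1 from 199.5 to 94.0 CPM, a difference of -1.08.

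**Figure D5:**
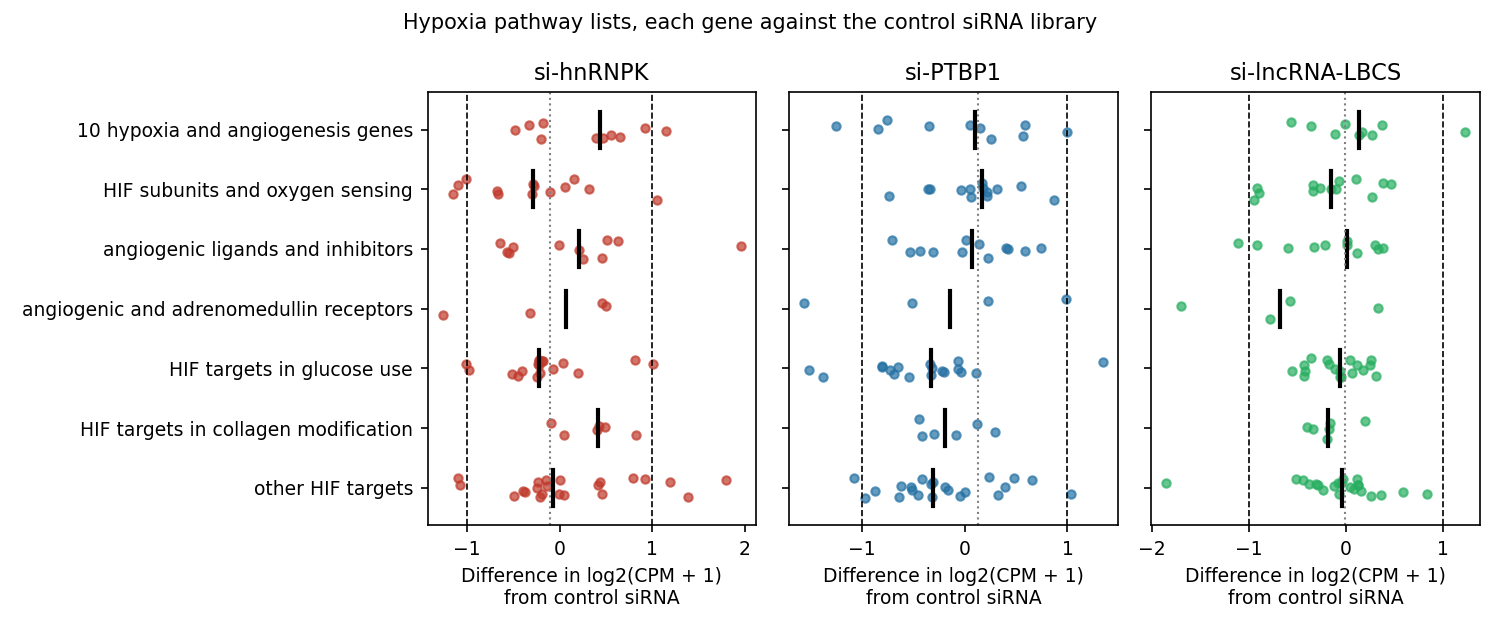
Difference from control siRNA in log2(CPM + 1) for each tested gene of the 10 genes and of 6 further lists, in 3 panels for the knockdown libraries. Black bars are list medians, dashed lines the threshold of 1 and dotted lines the median of all genes tested, and with si-PTBP1 16 of 18 genes of glucose use lie below 0.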

How the data were processed

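RNA of UM-UC-3 cells was sequenced as 100-base paired-end reads in 4 libraries, 1 per condition, grouped by GEO's labels. The authors deposited 1 table of CPM (reads of a gene per 1000000 reads) per library. The submitters' processing notes name hg19, and the aligner, counting method and its use of strand are not given in the sources used here. CPM were whole multiples of 1 read for 100% of genes with reads, within 0.001 read, which gave the read counts. Placeholder values of genes without reads were set to 0.

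Differences were taken in log2(CPM + 1), with a pseudocount of 1, and a difference of at least 1 was required among genes that reached 1 CPM in either library. No p-value was computed. The 95% intervals (exact, Clopper-Pearson) rest on a gene's reads in a pair of libraries and cover counting error only. Median-of-ratios factors used 12362 genes. Per-kilobase levels used the longest coding transcript.

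Symbols, positions and 3′ UTRs are from GENCODE release 29 (GRCh38), matched by identifier, and symbols matched 23982 of 25719 identifiers of the control table. Promoters are from RefSeq (GRCh38.p14). siRNAs were matched exactly. The 10 genes, 6 pathway lists and 4 cell type lists were chosen with earlier results of these data known, and 1 gene of the ligand list is not reported here and was left out of its counts. Beyond the 10 genes and the siRNA targets, the text names partners, receptors and paralogs by role, up to 2 rises and 2 falls per list and comparison among genes that reached 10 CPM in either library, and the highest gene of a cell type list. Overlapping genes, pseudogenes and markers with few reads are named as checks, and other genes named after their values were seen are marked so. The alternatives were 0.1 as pseudocount, the filter left out or set to 5 CPM, 1.5-fold as threshold, other references, scaling by median-of-ratios and an added binomial test of the reads with q at most 0.05. Calculations were tested on simulated data. Tools were scipy 1.17.1, pandas 2.3.3, statsmodels 0.14.6, numpy 2.4.6 and matplotlib 3.10.9 under Python 3.11.15.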

Additional observations from a re-analysis of the deposited data

Results flagged for a closer look

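The genes below stood on opposite sides of the control siRNA library in a pair of knockdown libraries, with both differences from control outside counting error and at least one of them at 1 or more in log2(CPM + 1). The signs, though not always the sizes, stayed the same after median-of-ratios scaling. The difference between the libraries was not tested, because each condition has 1 library.

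Among the 10 genes this held for CA9, which was at -0.85 with si-PTBP1 and 1.22 in the si-lncRNA-LBCS-labelled library, a gap of -2.07 for the first minus the second. CA9 rests on 115 and 831 reads in these libraries, and its exons overlap ARHGEF39.

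For the coactivator genes, si-hnRNPK minus si-PTBP1 was -1.27 for CREBBP and -1.37 for EP300. Under median-of-ratios scaling CREBBP was at -0.99 with si-hnRNPK and at 0.04 with si-PTBP1, which is close to control. For CXCL8 it was 2.67, and si-hnRNPK minus the si-lncRNA-LBCS-labelled library was 3.08. For TIE1 these gaps were 2.02 and 2.16, and for HMOX1 they were 2.31 and 3.65. For si-PTBP1 minus the si-lncRNA-LBCS-labelled library, the gap was -1.42 for PGK1, -1.69 for PGAM1 and 1.11 for DDIT4. In the si-lncRNA-LBCS-labelled library these genes stood at only 0.04, 0.18 and -0.07 from control, so the gaps came mostly from the si-PTBP1 library.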

How the results depend on the processing

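Of the 10 genes, CA9 passed the threshold in the si-lncRNA-LBCS-labelled library under each alternative run. With si-hnRNPK 3 genes passed with a pseudocount of 0.1 or a 1.5-fold threshold (NDRG1, CA9 and EGLN3), 2 with median-of-ratios scaling (NDRG1 and CA9), and 0 with the mean of control with both other knockdowns, or of the other knockdowns alone, as reference. With si-PTBP1 3 passed with a pseudocount of 0.1 (BNIP3, CA9 and EGLN3), 4 with a 1.5-fold threshold (these and HIF1A), and 2 with the mean of 3 libraries as reference (BNIP3 and CA9). With the mean of the other knockdown libraries 1 passed, CA9 in place of BNIP3. No difference of the 10 genes that had passed the threshold changed sign. Differences moved beyond their counting interval for 14 of 30 under median-of-ratios scaling, 4 with a pseudocount of 0.1, 25 with the mean of 3 libraries and 26 with the other knockdown libraries.

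Over all genes, counts up and down with a pseudocount of 0.1 were 790 and 995 (si-hnRNPK), 793 and 173 (si-PTBP1), and 165 and 353 (si-lncRNA-LBCS-labelled library). With a 1.5-fold threshold they were 1352 and 2165, 1673 and 432, and 559 and 774. Median-of-ratios scaling gave 256 and 132 with si-PTBP1. With the mean of 3 libraries as reference 317 rose and 356 fell with si-hnRNPK, 234 rose with si-PTBP1 and 6 rose in the si-lncRNA-LBCS-labelled library, and with the other knockdown libraries 316 rose with si-hnRNPK.

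In the lists, median-of-ratios scaling left 1 fall in oxygen sensing, 0 in glucose use and 0 in other HIF targets with si-hnRNPK, and gave 0 rises and 3 falls in other HIF targets with si-PTBP1. A pseudocount of 0.1 gave 2 rises and 2 falls in glucose use with si-hnRNPK, 1 rise among ligands, 1 rise among receptors and 2 falls in other HIF targets with si-PTBP1, and 2 falls each among ligands and receptors in the si-lncRNA-LBCS-labelled library. What caused them was not tested.

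With 1 library per condition, counting error is the only error measured. CA9, ANKRD37 and EGLN3, with 18 to 831 reads, are the least precise of the 10 genes.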
